A study of Mus musculus with 9 samples.

Results

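Oxidative phosphorylation is carried out by 4 respiratory complexes and the ATP synthase (complex V) in the inner mitochondrial membrane, and its subunits are encoded in 2 genomes. The genes described here are the protein-coding genes of that machinery, chosen by symbol from the GENCODE M21 annotation: names starting with mt-, Nduf (Ndufaf assembly factors left out), Uqcr, Cox4 to Cox8 and Atp5, and Sdha to Sdhd. They numbered 99 of the 22136 genes summed, with 13 in the mitochondrial genome and 86 in the nucleus. Complexes I to V had 7, 0, 1, 3 and 2 mitochondrial genes and 36, 4, 8, 20 and 18 nuclear ones, with Ndufa4 and Ndufa4l2 counted in complex IV.

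Complex I takes electrons from NADH and complex II from succinate, complex III passes them to cytochrome c, complex IV hands them to oxygen, and complex V makes ATP from the proton gradient the others build. The mitochondrial genome codes for core membrane subunits of complexes I, III, IV and V and is read from long polycistronic transcripts that are then processed, whereas the nuclear subunits each have a promoter of their own and are imported as proteins. In lymphocytes and myeloid cells the balance between this pathway and glycolysis shifts with activation.

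The RNA came from CD45-positive (leukocyte) cells sorted out of subcutaneous tumours of YUMM 2.1, a mouse melanoma line that the series title calls β-catenin driven, grown in immunocompetent C57BL/6J mice. The mice were given an antibody to B7-H3 (an immune checkpoint protein), an antibody to PD1 (a receptor that restrains T cells) or an IgG control once tumours measured 20 to 50 mm3. Each of the 3 groups had 3 libraries, and all 9 shared the tumour line, the strain and the sort. Nothing in the labels ties the libraries of a group to separate animals, so p-values measure only the spread between these samples. A combination of antibodies named in the design was not analysed here.

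Library totals ran from 14487012 to 31533106 estimated counts. The leukocyte gene Ptprc (CD45) was at 1718 to 2348 CPM (the count scaled to library size) in the anti-B7-H3 libraries, 1821 to 2411 CPM in the anti-PD1 libraries and 1871 to 2913 CPM in the IgG libraries. Marker levels of some cell types differed between groups, and in bulk libraries fewer cells of a type and less RNA per cell cannot be told apart. The summed level of 12 macrophage markers was 1753 to 2713 CPM with anti-B7-H3, 1299 to 1926 CPM with anti-PD1 and 123 to 314 CPM with IgG, and that of 12 T cell markers was 5046 to 7156, 5352 to 6818 and 6335 to 8648 CPM in the same order. With edgeR's quasi-likelihood test, 8 of the 12 macrophage markers were higher than in IgG in each treatment, and 0 of the T cell markers passed. The sum of 7 erythroid markers was 6.75 to 11.2 CPM with anti-B7-H3, 2.06 to 30.3 CPM with anti-PD1 and 7.49 to 435 CPM with IgG. The 435 CPM was in IgG 3. That of 10 B cell markers was 65.9 to 522, 53.0 to 152 and 32.2 to 93.7 CPM in the same order, with the 522 CPM in anti-B7-H3 1. IgG 2 and anti-PD1 3 stood apart from the other libraries. IgG 2 lay far out on principal component 1 (35.9% of the variance) and had 1896 of 13178 tested genes at 0. Anti-PD1 3 lay far out on the next component (18.5%) and had 1248 genes at 0, against 224 to 822 genes at 0 in the remaining libraries.

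The sequence of mt-Atp8 is shown because its last bases belong to mt-Atp6 as well, so reads there cannot be given to 1 gene. It is the GENCODE M21 transcript at chrM:7766-7969 on the plus strand of GRCm38, 204 bases, with the bases shared with mt-Atp6 in capitals.
mt-Atp8: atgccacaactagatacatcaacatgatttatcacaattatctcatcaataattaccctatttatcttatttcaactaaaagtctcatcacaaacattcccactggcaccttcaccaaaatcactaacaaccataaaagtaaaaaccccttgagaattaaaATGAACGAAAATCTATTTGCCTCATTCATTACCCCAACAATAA
The shared stretch covers 43 bases, from 7927 to 7969. Other neighbours in the mitochondrial genome share less: mt-Nd5 and mt-Nd6 share 14 bases on opposite strands, mt-Nd4l and mt-Nd4 share 7, and mt-Atp6 and mt-Co3 share 1. Strand is not kept by the library kits. Reads of mt-Nd6, the 1 gene of the 13 on the minus strand, therefore cannot be told from antisense reads of the other strand, and the same goes for other genes that overlap.

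The mitochondrially encoded genes took a larger share of the counts in every treated library than in 2 of the 3 IgG libraries, but the groups overlapped. They held 4.51%, 2.81% and 2.74% of all gene counts in anti-B7-H3 libraries 1, 2 and 3, 3.27%, 3.88% and 2.35% in anti-PD1 libraries, and 2.34%, 1.64% and 3.89% in IgG libraries. IgG 3 thus lay above 5 of the 6 treated libraries and IgG 2 below all of them. The means were 3.35% ± 1.0 with anti-B7-H3, 3.17% ± 0.77 with anti-PD1 and 2.62% ± 1.15 with IgG (SD, n = 3 each). Counting error is small beside this spread, since the Wilson 95% interval of a library's share is at most 0.0105 percentage points to either side.

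The 86 nuclear genes held 1.61%, 1.34% and 1.22% of counts with anti-B7-H3, 1.24%, 1.25% and 1.2% in anti-PD1 libraries, and 1.33%, 1.35% and 1.75% with IgG. Every anti-PD1 library lay below every IgG library in these shares of plain totals, while the anti-B7-H3 libraries overlapped both groups. In CPM, which use rescaled library sizes, the nuclear sums of anti-PD1 and IgG overlapped in each complex. Those of complex V, for example, were 4866 to 5209 CPM with anti-PD1 and 4548 to 7071 CPM with IgG. The ratio of mitochondrial to nuclear counts was 2.8, 2.09 and 2.24 with anti-B7-H3, 2.64, 3.1 and 1.96 in anti-PD1 libraries, and 1.76, 1.22 and 2.22 with IgG. IgG 1 and IgG 2 lay below every treated library and IgG 3 lay among them. Per length, as summed TPM (the length-scaled transcript level), the nuclear genes made up 2.83% ± 0.251 with anti-B7-H3, 2.6% ± 0.121 with anti-PD1 and 3.22% ± 0.48 with IgG (SD, n = 3 each). With 3 libraries against 3, an exact two-sided permutation test cannot give a p below 0.1, and these shares are given without a test.

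**Figure D1:**
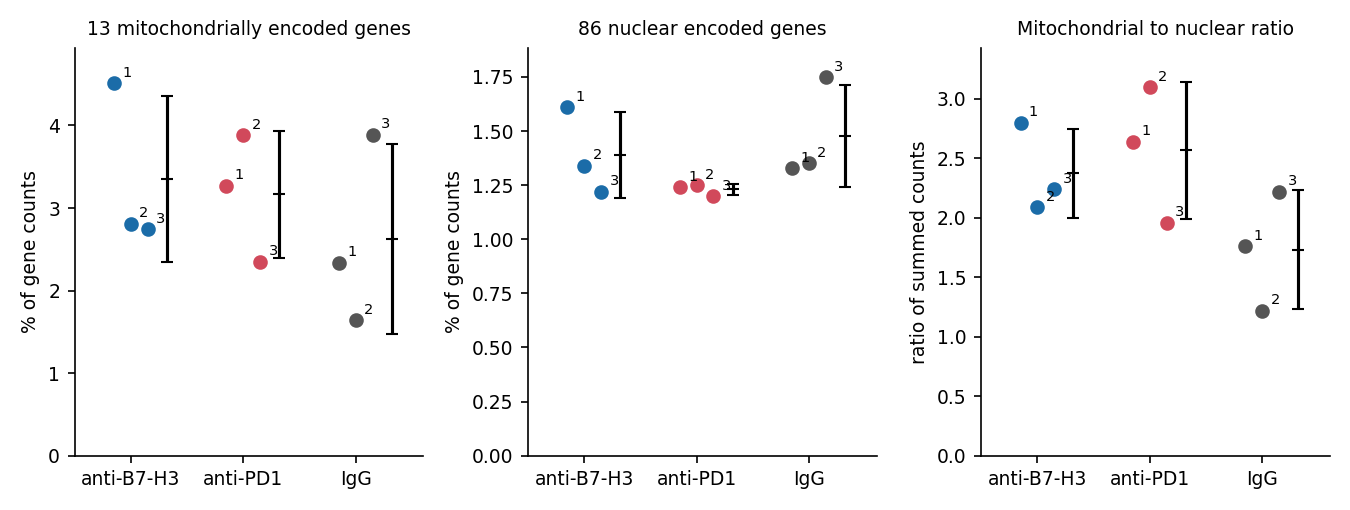
Share of gene counts (percent) of the 13 mitochondrial and the 86 nuclear genes, and the ratio of the summed counts, in each library; points are libraries with their replicate number and bars show the mean ± SD of 3. The mitochondrial share of IgG 3 (3.89%) lies above that of 5 of the 6 treated libraries, and the anti-PD1 libraries have the lowest spread in the nuclear share (1.2% to 1.25%).

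Gene by gene, none of the members passed the test in any comparison. Of the 99 genes, 94 had enough counts to be tested by edgeR's quasi-likelihood test over 13178 genes (adjusted p under 0.05), all 13 mitochondrial and 81 nuclear. For anti-B7-H3 against IgG, 0 of the 94 were called, where 0.85% of all tested genes were (0.827% higher and 0.0228% lower), and 0 had an unadjusted p under 0.05, where 8.81% of all genes did. For anti-PD1 against IgG, 0 were called against 1.74% of all genes (1.72% higher and 0.0152% lower), and 1 had an unadjusted p under 0.05 against 10.9%. That 1 was Cox4i2, which was at 0 in every IgG library and passed the filter only through treated ones. For anti-B7-H3 against anti-PD1, 0 were called against 0% of all genes, and 0 had an unadjusted p under 0.05 against 3.23%. DESeq2 and limma-voom called 0 members as well. At an unadjusted p under 0.05, DESeq2 had 0 members and limma-voom 2, in anti-B7-H3 against IgG.

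How far the data bound a change differs between the genomes. The 95% interval of the fold change lay within 2-fold in either direction for 71, 57 and 62 of the 81 nuclear genes (anti-B7-H3 against IgG, anti-PD1 against IgG, anti-B7-H3 against anti-PD1). It did so for 1, 2 and 8 of the 13 mitochondrial genes, so a 2-fold change in one direction lay inside the interval for most of them in the comparisons with IgG.

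The fitted differences of the mitochondrial genes were mostly above 0. Their median log2 fold change was 0.37 for anti-B7-H3 against IgG, with 12 of 13 above 0, and 0.25 for anti-PD1 against IgG, with 11 of 13 above 0. Over all tested genes the medians were 0.02 and -0.04, with 52.1% and 47.2% above 0. The 2 comparisons share the IgG libraries, so they are not independent of each other. Between anti-B7-H3 and anti-PD1 the median was 0.07, and it was -0.24 with limma-voom, -0.27 without anti-B7-H3 1 and -0.02 without anti-PD1 3. Without IgG 3 the medians against IgG were 0.89 and 0.8, and without IgG 2 they were 0.07 and 0. Without anti-B7-H3 1 that of anti-B7-H3 against IgG was 0.01, and without anti-PD1 2 that of anti-PD1 against IgG was 0.04. Without IgG 2 and anti-PD1 3 together the medians against IgG were 0.05 and 0.12.

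Among complex IV genes of the mitochondrial genome, mt-Co3, which codes for a core subunit of cytochrome c oxidase, had the largest fitted difference for anti-B7-H3 against IgG. It was at 12295, 6517 and 5333 CPM with anti-B7-H3, 7779, 8315 and 4341 CPM with anti-PD1, and 4592, 2289 and 8144 CPM with IgG. Only anti-B7-H3 1 and anti-PD1 2 exceeded IgG 3. The log2 fold changes against IgG were 0.68 ± 0.46 (SE) and 0.44 ± 0.46, with edgeR adjusted p of 0.773 and 0.793.

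The catalytic subunit gene mt-Co1 averaged 8459 ± 2918 CPM with anti-B7-H3, 8054 ± 1919 CPM with anti-PD1 and 6799 ± 4083 CPM with IgG (SD, n = 3 each). The copper-binding subunit gene mt-Co2 averaged 3259 ± 1348, 3246 ± 980 and 2466 ± 1501 CPM in the same groups. In both, IgG 3 was above every anti-PD1 library and below anti-B7-H3 1.

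Of the ATP synthase genes, mt-Atp8, a small subunit of its membrane part, was the 1 mitochondrial gene with a comparison in which the groups did not overlap. It was at 1505, 774 and 840 CPM with anti-B7-H3, 963, 1268 and 929 CPM with anti-PD1, and 801, 539 and 851 CPM with IgG. Every anti-PD1 library was above every IgG library, as was the case for 9.99% of all tested genes in the upward direction. The log2 fold change was 0.53 ± 0.29 with an edgeR adjusted p of 0.555. The neighbour mt-Atp6, the proton channel subunit that shares the 43 bases printed in capitals, was at 5869, 7194 and 4229 CPM with anti-PD1 against 3702, 2552 and 6373 CPM with IgG, and its groups overlapped.

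For complex III, mt-Cytb (cytochrome b) was at 3641, 1959 and 2205 CPM with anti-B7-H3, 2499, 3146 and 1900 CPM with anti-PD1, and 1708, 1685 and 2631 CPM with IgG. Its highest library was 2.16 times its lowest, close to the smallest ratio among the 13 genes (2.13, mt-Nd5).

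The complex I genes of the mitochondrial genome, which code for its proton-pumping membrane arm, held both the widest range and the narrowest. The gene mt-Nd3 was at 435, 121 and 72.7 CPM with anti-B7-H3, 126, 151 and 76.0 CPM with anti-PD1, and 131, 35.4 and 278 CPM with IgG. Its highest library was 12.3 times its lowest, and the 95% interval of its log2 fold change for anti-B7-H3 against IgG ran from -1.44 to 2.44. The minus-strand gene mt-Nd6 was the only mitochondrial gene with a fitted difference below 0 for anti-B7-H3 against IgG (-0.11 ± 0.52), and for anti-PD1 against IgG mt-Nd3 (-0.33 ± 0.84) and mt-Nd6 (-0.36 ± 0.52) were below 0.

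The remaining complex I genes, mt-Nd1, mt-Nd2, mt-Nd4, mt-Nd4l and mt-Nd5, had log2 fold changes of 0.13 to 0.48 for anti-B7-H3 against IgG and 0.06 to 0.27 for anti-PD1 against IgG. In mt-Nd1, which had the 0.48, the libraries were at 3064, 1765 and 1758 CPM with anti-B7-H3 against 1203, 984 and 2545 CPM with IgG. IgG 3 again lay inside the anti-B7-H3 range.

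**Figure D2:**
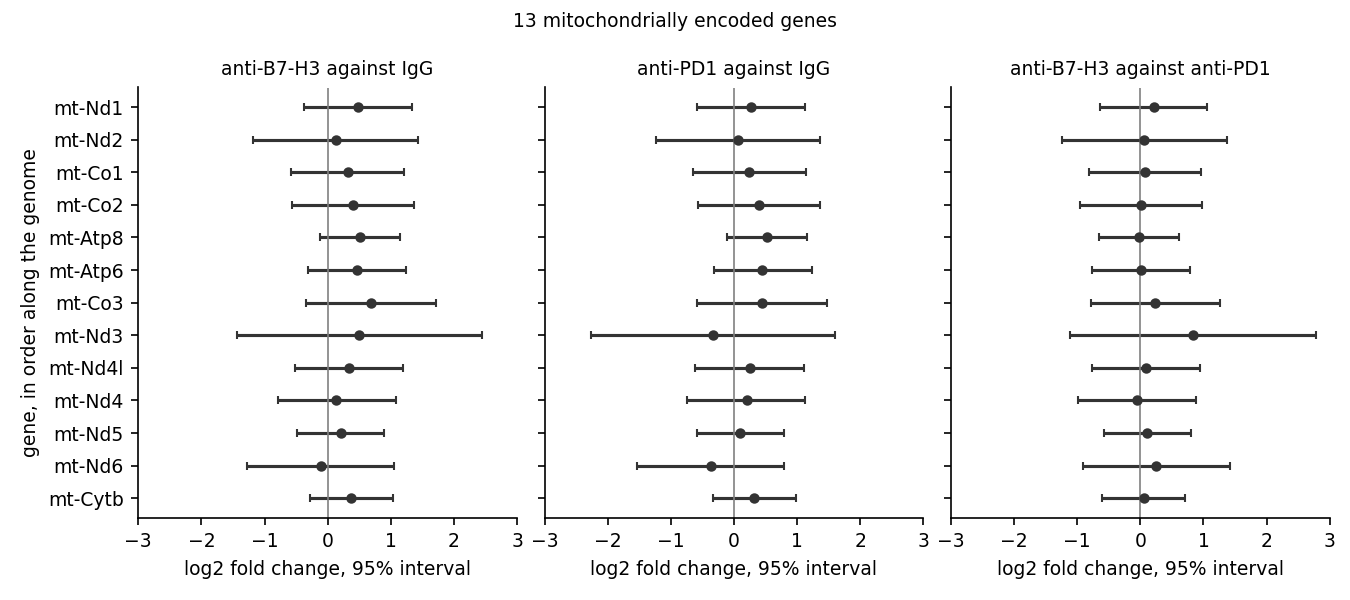
Log2 fold change (x axis) of each of the 13 mitochondrial genes (y axis, in genome order) in the 3 comparisons; points are edgeR estimates and bars the 95% intervals. Every interval includes 0, and mt-Nd3 has the widest.

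Per length, mt-Atp8 stood highest among the mitochondrial genes. In TPM it made up a mean of 25.1% of the 13 genes' sum, mt-Co3 18.9%, mt-Atp6 18.7% and mt-Co2 10.3%, and each complex I gene except mt-Nd1 (4.29%) made up 0.961% to 1.75%. For the short mt-Atp8 this level rests on few positions, 43 of which it shares with mt-Atp6. Its level beside mt-Atp6 therefore depends on how the quantifier divided reads between them. In counts, which grow with length, mt-Co1 held 23.5% to 27.7% of the mitochondrial sum over the 9 libraries and mt-Co3 held 15.6% to 24.5%. In anti-B7-H3 1, mt-Co3 was above mt-Co1.

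The fitted differences of the nuclear genes lay on both sides of 0. Their median log2 fold change was -0.05 for anti-B7-H3 against IgG, with 26 of 81 above 0, and -0.23 for anti-PD1 against IgG, with 13 of 81 above 0. For anti-B7-H3 against anti-PD1 it was 0.16, with 73 of 81 above 0 and 8 below, where 53.8% and 46.2% of all tested genes were. Leaving out IgG 3 turned the medians against IgG round, to 0.19 and 0.07, leaving out anti-B7-H3 3 turned that of anti-B7-H3 against IgG, to 0.1, and leaving out anti-B7-H3 1 turned that between the treatments, to -0.11. It was -0.02 with limma-voom. Without IgG 2 and anti-PD1 3 together, the libraries that stood apart, the medians were -0.19, -0.28 and 0.11.

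Complex I, with 36 of the 81 tested nuclear genes, accounts for most of those lower in every anti-PD1 library than in every IgG library. There were 11 such nuclear genes of 81, where 6.52% of all tested genes did this: Ndufa5, Ndufa9, Ndufb3, Ndufb11, Ndufc2, Ndufs4 and Ndufv1 in complex I, Cox7a2 and Cox7a2l in complex IV, and Atp5k and Atp5s in complex V. Several of them are named only because of this count, after their values were seen. Of the 36 nuclear complex I genes, 34 had a log2 fold change below 0 for anti-PD1 against IgG, as did 52.7% of all tested genes, and their median was -0.26. The nuclear medians of complexes III and V were both -0.25. The summed level of the complex I genes was 5388, 3763 and 3359 CPM with anti-B7-H3, 3756, 3989 and 3660 CPM with anti-PD1, and 3683, 3940 and 5840 CPM with IgG, so the sums of anti-PD1 and IgG overlapped.

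Ndufa5, an accessory subunit of complex I (chr6:24518666-24528013), was at 38.5, 45.6 and 38.1 CPM with anti-PD1 and 53.3, 58.2 and 87.6 CPM with IgG. The anti-B7-H3 libraries spanned both, at 81.0, 39.1 and 32.5 CPM. The log2 fold change was -0.7 ± 0.34 for anti-PD1 against IgG (edgeR adjusted p = 0.493) and -0.39 ± 0.34 for anti-B7-H3 against IgG (adjusted p = 0.855).

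Ndufv1, which carries the NADH-binding site of complex I, was at 153, 141 and 139 CPM with anti-PD1 and 153, 165 and 232 CPM with IgG. Its highest anti-PD1 library and its lowest IgG library round to the same value, so the separation is slight. Ndufs1, the largest core subunit and the complex I gene with the lowest mean level per length (58.1 TPM), was at 119, 128 and 112 CPM with anti-B7-H3, 119, 115 and 103 CPM with anti-PD1, and 138, 208 and 117 CPM with IgG. It was highest in IgG 2, the library that stood apart. Its log2 fold change was -0.46 ± 0.22 for anti-PD1 against IgG, with an edgeR adjusted p of 0.492. At the other end of the levels, the small subunit gene Ndufa1 averaged 782 TPM, and its log2 fold changes against IgG were -0.08 ± 0.32 for anti-B7-H3 and -0.04 ± 0.32 for anti-PD1.

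Complex II, the only complex with no mitochondrially encoded subunit and also an enzyme of the TCA cycle, was the 1 nuclear set whose genes, 4 in number, were all above 0 for anti-B7-H3 against IgG, with a median log2 fold change of 0.18. For anti-PD1 against IgG 3 of the 4 were above 0, with a median of 0.07. Sdhc, one of its membrane anchors, was at 80.3, 69.0 and 70.7 CPM with anti-B7-H3, 61.2, 70.6 and 57.6 CPM with anti-PD1, and 54.3, 48.4 and 71.6 CPM with IgG. IgG 3 lay between the anti-B7-H3 libraries. Its log2 fold change of 0.34 ± 0.21 for anti-B7-H3 against IgG had an edgeR adjusted p of 0.743.

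Sdhd, the other anchor, was at 85.3, 87.8 and 79.8 CPM with anti-B7-H3 and 63.0, 59.8 and 85.4 CPM with IgG. Sdha, the flavoprotein that oxidises succinate, was the only tested nuclear gene whose anti-B7-H3 libraries (424, 441 and 424 CPM) were all above the IgG libraries (421, 370 and 421 CPM), where 9.96% of all tested genes were. The gap was small beside the fit's error, with a log2 fold change of 0.09 ± 0.2. Sdha was at 433, 377 and 259 CPM with anti-PD1, lowest in the library that stood apart. Sdhb, the iron-sulphur subunit, had the highest level per length of the 4 (191 TPM) and log2 fold changes of 0.08 ± 0.21 and 0.01 ± 0.21 against IgG. Lower in every anti-B7-H3 library than in every IgG library were 0 of the 94 tested members, against 5.49% of all tested genes.

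In complex III, Uqcrc1, a core subunit on the matrix side, was at 576, 414 and 291 CPM with anti-B7-H3, 359, 268 and 217 CPM with anti-PD1, and 290, 246 and 480 CPM with IgG. The groups overlapped in all 3 comparisons. The log2 fold change of 0.6 ± 0.32 for anti-B7-H3 against anti-PD1 had an unadjusted edgeR p of 0.0844, the smallest of any member in that comparison, and an adjusted p of 1.0. Uqcrc2, its partner subunit, had log2 fold changes of -0.2 ± 0.22 for anti-B7-H3 and -0.27 ± 0.22 for anti-PD1 against IgG, and Uqcrh, the hinge protein, had -0.1 ± 0.35 and -0.37 ± 0.35.

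In complex V, Atp5k, subunit e of the membrane part, had the lowest fitted value of all nuclear genes for anti-PD1 against IgG. It was at 31.3, 42.9 and 44.2 CPM with anti-PD1 and 58.4, 55.6 and 80.7 CPM with IgG, and its log2 fold change was -0.72 ± 0.44 (edgeR adjusted p = 0.62). With anti-B7-H3 it was at 108, 37.3 and 27.7 CPM, both the highest and the lowest of the 9 libraries. Atp5o, a subunit of the stalk, had a log2 fold change of -0.4 ± 0.22 for anti-PD1 against IgG and overlapping groups.

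Atp5a1 and Atp5b code for the catalytic ring of the enzyme. Atp5a1 (subunit alpha, chr18:77773729-77782869) was at 967, 816 and 858 CPM with anti-B7-H3, 738, 652 and 726 CPM with anti-PD1, and 873, 716 and 818 CPM with IgG. Every anti-B7-H3 library exceeded every anti-PD1 library, and the IgG libraries overlapped both. The log2 fold change for anti-B7-H3 against anti-PD1 was 0.32 ± 0.17 (edgeR unadjusted p = 0.0898, adjusted p = 1.0). Atp5b (subunit beta) was at 1975, 1872 and 1834 CPM with anti-B7-H3 and 1745, 1585 and 1456 CPM with anti-PD1, also without overlap. Of all tested genes, 7.13% were higher in every anti-B7-H3 library than in every anti-PD1 library. No tested member was lower without overlap, against 6.4% of all tested genes. Atp5b is named for this separation, after its values were seen.

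Per length, small subunits were among the highest nuclear genes: Cox6b1 averaged 1278 TPM, Cox8a 1168 TPM and, in complex V, Atp5e, subunit epsilon, 1067 TPM. The lowest tested ones were Cox4i2 (0.436 TPM), Cox7a1 (4.48 TPM), Cox6b2 (5.21 TPM) and Atp5s (12.5 TPM), a coupling factor.

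**Figure D3:**
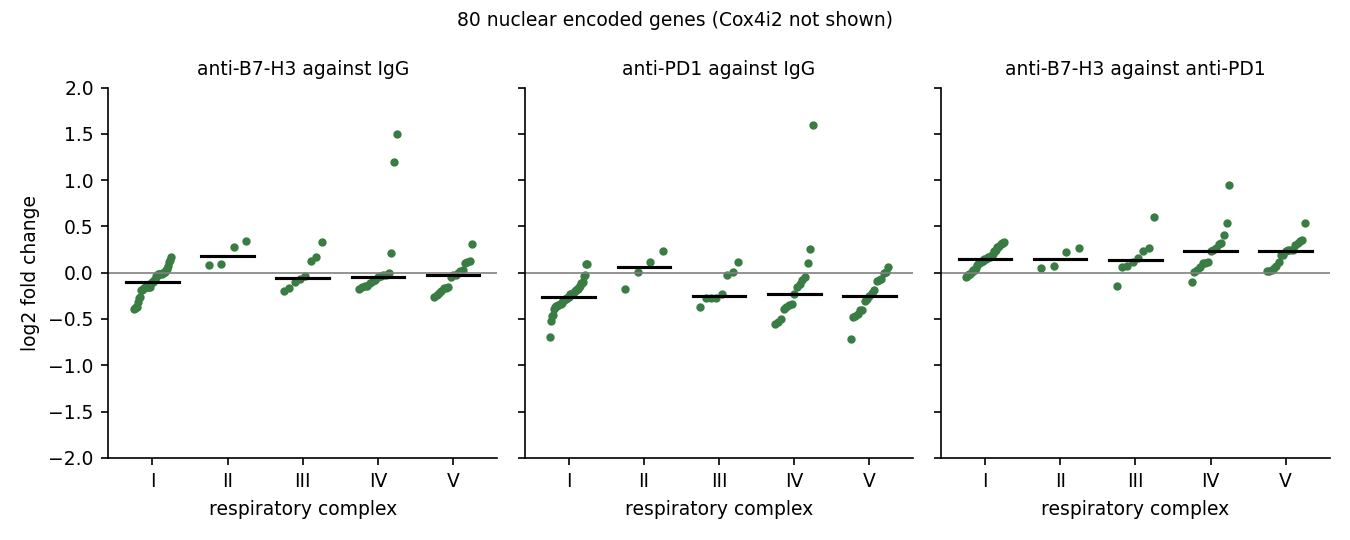
Log2 fold change (y axis) of 80 tested nuclear genes by respiratory complex (x axis) in the 3 comparisons; each point is a gene and each line the median of its complex. Cox4i2 is not drawn because all its IgG libraries were at 0. For anti-PD1 against IgG the medians of complexes I, III, IV and V lie below 0 and that of complex II at 0.07.

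Complex IV has subunits with tissue-specific isoforms, and its common and restricted forms were at very different levels. Of the forms found in most tissues, Cox4i1 averaged 713 TPM, Cox6a1 679 TPM, Cox7a2 569 TPM and Ndufa4, an associated subunit that carries a complex I name, 665 TPM. Their log2 fold changes against IgG ran from -0.15 to 0.21 for anti-B7-H3 and from -0.39 to 0.1 for anti-PD1, and none passed edgeR's test. Cox7a2l, a relative of Cox7a2 that takes part in assembling supercomplexes, was at 42.2, 49.0 and 45.3 CPM with anti-PD1 and 54.1, 52.9 and 93.0 CPM with IgG (log2 fold change -0.55 ± 0.33, edgeR adjusted p = 0.604).

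The restricted isoforms were sparse, and 3 of them, Cox4i2, Ndufa4l2 and Cox7b2, had no count in any IgG library. Cox4i2, the form of subunit 4 known from lung and from oxygen-sensing and vascular cells, had 0, 8 and 15 counts with anti-B7-H3, 18, 32 and 0 in anti-PD1 libraries, and 0 in each IgG library. Against a floor of 3 counts over the IgG group it was at least 5.62-fold higher under anti-B7-H3 and at least 11.5-fold higher under anti-PD1, over pooled counts. It passed the filter on low counts only through treated libraries, so its p-values are not used. One library of each treatment had no count, so the groups overlapped. Such folds cover counting error in the pooled reads only and set no bound on a difference between treatments.

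Ndufa4l2, a hypoxia-responsive relative of Ndufa4, had too few counts to be tested: 5, 3 and 12 with anti-B7-H3, 12, 41 and 0 in anti-PD1 libraries, and 0 in each IgG library. Its pooled counts were at least 4.88-fold higher with anti-B7-H3 and at least 12.2-fold higher with anti-PD1 over the same kind of floor. The groups of anti-PD1 and IgG overlapped. Cox7b2, a testis form, had 23, 6 and 0 counts with anti-B7-H3, 0, 12 and 0 in anti-PD1 libraries, and 0 with IgG. Its pooled counts were 7.08-fold and 2.77-fold the IgG floor. Both treatments overlapped IgG, and all 12 counts with anti-PD1 came from 1 library. Anti-PD1 2 held the most counts of Cox4i2 and Ndufa4l2, and anti-B7-H3 1 the most of Cox7b2. The other untested members were Cox8b, with 0 counts everywhere, Cox8c, with 1 count, and a 2nd gene identifier of Atp5o, with 2 counts.

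Markers of fibroblasts, which lack CD45 and so fall outside the sort, were also near 0 in IgG. The sum of 8 such markers was 9.67 to 14.2 CPM with anti-B7-H3, 13.3 to 29.7 CPM with anti-PD1 and 0.495 to 1.6 CPM with IgG, with 3 to 6 of the 8 detected in the treated libraries and 1 to 5 in the IgG libraries. Col3a1 held most of the sum in every treated library, at 6.63 to 12.3 CPM with anti-B7-H3 and 8.28 to 20.0 CPM with anti-PD1. With IgG it was at 0 to 0.902 CPM. Col1a2 went the other way for anti-B7-H3, at 0 to 0.339 CPM against 0.0501 to 0.882 CPM with IgG. It was at 0.629 to 8.06 CPM with anti-PD1. Fap was at 0 in every treated library, Dcn and Pdgfra in every anti-PD1 library, and Dcn and Pdgfrb in every IgG library. The library anti-PD1 3, with 0 counts of Cox4i2 and Ndufa4l2, had the highest sum of all. The part of such cells, or of the macrophages, in the isoform values was not tested.

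Cox6a2, the heart and muscle form of subunit 6a, was at 7.57, 10.1 and 9.16 CPM with anti-B7-H3, 8.14, 3.81 and 1.96 CPM with anti-PD1, and 1.45, 1.98 and 8.2 CPM with IgG. IgG 3 lay inside the anti-B7-H3 range, and the log2 fold change of 1.2 ± 0.79 had an edgeR adjusted p of 0.759. Cox6b2, a testis form, was at 1.24, 1.7 and 1.25 CPM with anti-PD1 and 0.902, 0 and 0.467 CPM with IgG, without overlap. In this comparison 9.99% of all tested genes separated upward. Its log2 fold change, near the floor, was 1.6 ± 1.47 (edgeR adjusted p = 0.772). Cox7a1, the muscle form of subunit 7a, stayed under 2 CPM in every library, with a log2 fold change of 0.0 ± 1.55 for anti-B7-H3 against IgG.

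The 3 genes for the identical mature subunit c of the ATP synthase differ in their import sequences. Atp5g3 averaged 633 TPM, Atp5g1 410 TPM and Atp5g2 296 TPM over the 9 libraries. Their log2 fold changes were 0.12 ± 0.26, -0.05 ± 0.37 and -0.02 ± 0.23 for Atp5g1, Atp5g2 and Atp5g3 in anti-B7-H3 against IgG, and 0.01 ± 0.26, -0.4 ± 0.37 and -0.07 ± 0.23 in anti-PD1 against IgG. Reads of the shared coding part could be split between them by the quantifier.

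The libraries with the highest and lowest values cut across the groups. Of the 81 tested nuclear genes, 44 had their highest level in IgG 3 and 27 in anti-B7-H3 1, and 34 had their lowest level in anti-B7-H3 3. Of the 13 mitochondrial genes, 11 were highest in anti-B7-H3 1, 2 in IgG 3, and 11 were lowest in IgG 2. Both anti-B7-H3 and IgG thus held a library in which many members were highest and another in which many were lowest.

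**Figure D4:**
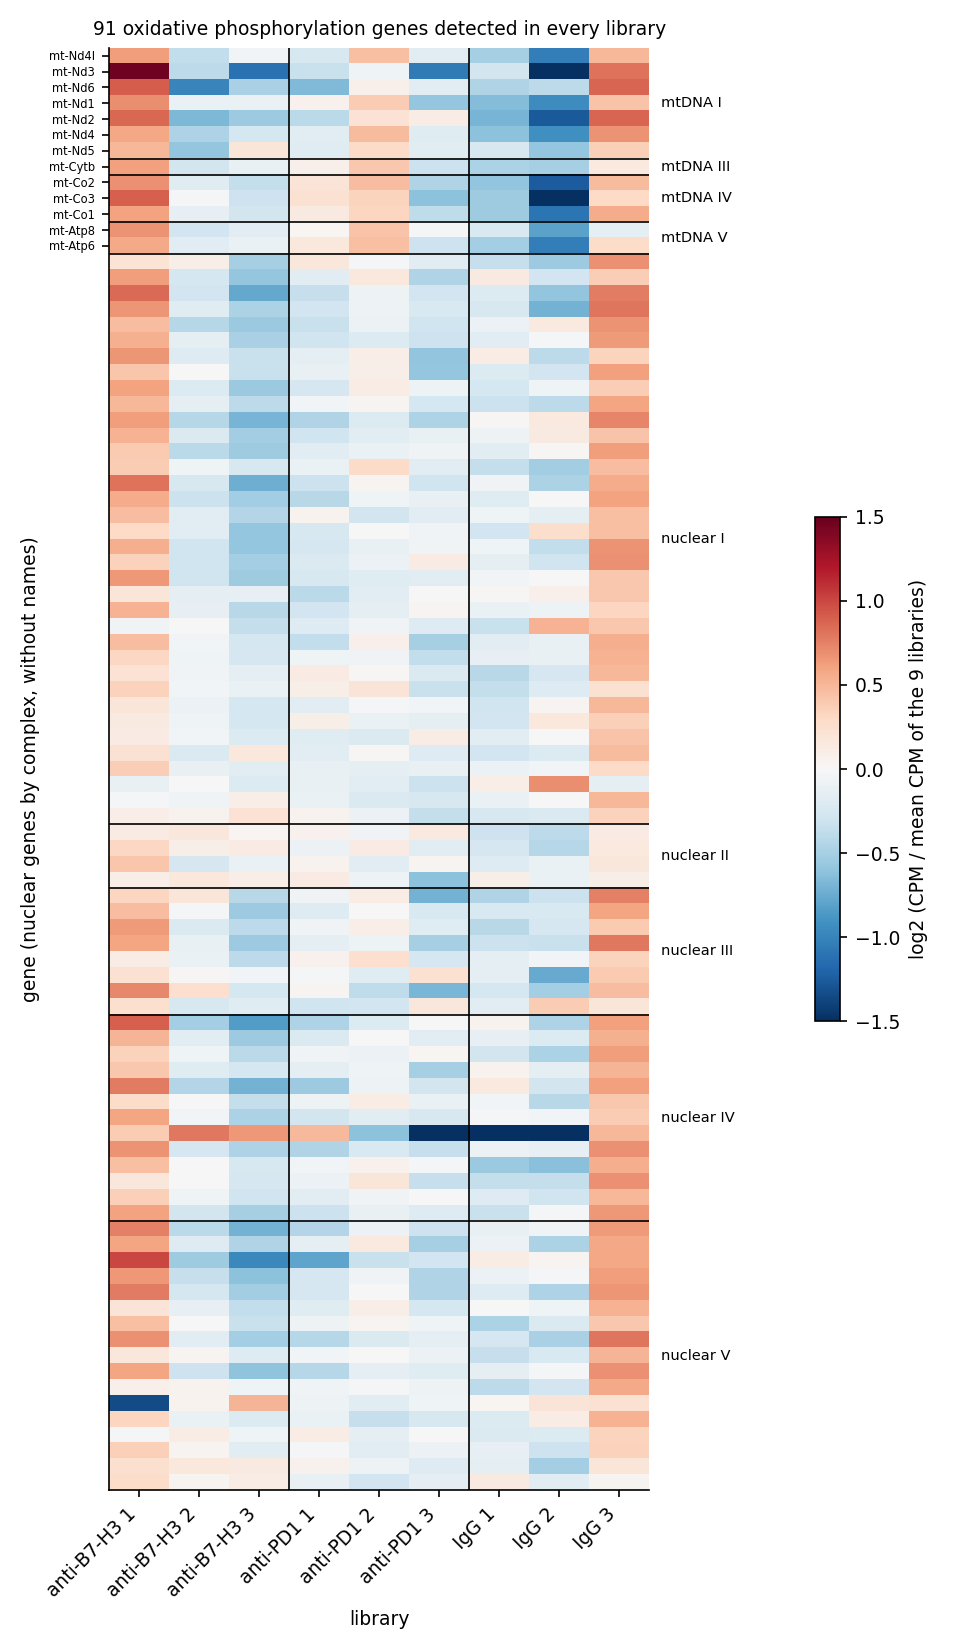
Log2 of each gene's CPM over its mean in the 9 libraries (colour, drawn up to 1.5 in either direction) for the 91 members with counts in every library, mitochondrial genes on top, then nuclear genes, not named, by complex and rising coding length. Anti-B7-H3 1 and IgG 3 are red for most genes and anti-B7-H3 3 is blue for most nuclear genes.

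Short and long members did not deviate equally in every library. Nuclear members with a mean of at least 20 CPM were split at 414 bases into 37 short and 39 long genes, and the median log2 deviation from each gene's own mean was compared. Short minus long was 0.23, -0.12 and -0.28 in anti-B7-H3 libraries 1, 2 and 3, -0.07, 0.11 and -0.14 with anti-PD1, and 0.06, -0.16 and 0.16 with IgG. Among 462 short and 6175 long other protein-coding genes above the same level it was 0.31, -0.09 and -0.3 with anti-B7-H3, -0.09, 0.04 and -0.04 in anti-PD1 libraries, and -0.22, -0.1 and 0.38 with IgG. Both sets were highest in anti-B7-H3 1 and IgG 3 among the libraries of their groups, and both were lowest overall in anti-B7-H3 3. The part of length in the members' differences was not tested.

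**Figure D5:**
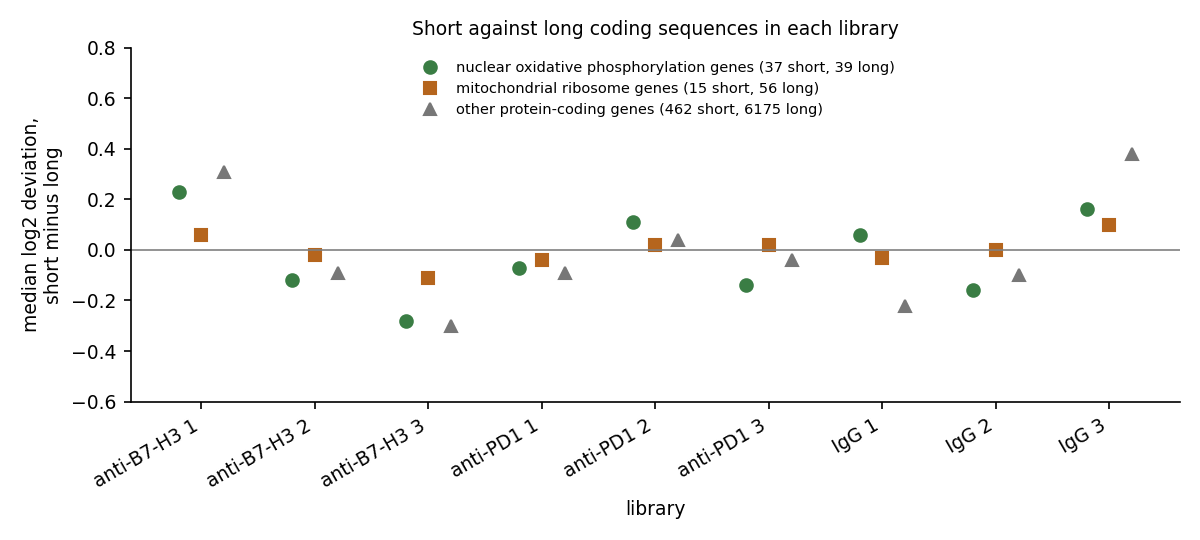
Median log2 deviation of short genes minus that of long genes (y axis) in each library (x axis), for nuclear oxidative phosphorylation genes, mitochondrial ribosome genes and other protein-coding genes, split at 414 coding bases. In every anti-B7-H3 library, anti-PD1 1, anti-PD1 2 and IgG 3 all 3 sets lie on the same side of 0. In anti-PD1 3 and IgG 1 they lie on both sides.

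Other genes of the pathway were grouped by role. Over all tested genes, 0.85% passed edgeR's test for anti-B7-H3 against IgG, 1.74% for anti-PD1 against IgG and 0% between the treatments. Of 49 tested assembly factors, 0 passed edgeR's test in any comparison, with medians of -0.1 for anti-B7-H3 and -0.23 for anti-PD1 against IgG, close to those of the nuclear subunits. None passed either among 18 TCA cycle and pyruvate dehydrogenase genes (medians 0.12 and -0.12), 25 genes of the mitochondrial membranes, import and folding (0.03 and -0.11), 15 biogenesis regulators (0.18 and 0.24) or 4 subunits or regulators with names outside the rule, Cyc1, Higd1a, Higd2a and Atpif1 (-0.08 and -0.07). Of 78 tested genes of the mitochondrial ribosome, which translates the mRNAs of the 13 mitochondrial genes, 0 passed. Their medians were -0.16 and -0.26, with 22 and 9 of the 78 above 0, where 52.1% and 47.2% of all tested genes were.

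The 1 gene of these lists that passed was Coq10b, a coenzyme Q-binding protein needed for electron transport between complexes (chr1:55052770-55072702). It was at 62.4, 65.6 and 79.7 CPM with anti-PD1 and 25.1, 24.3 and 24.7 CPM with IgG, without overlap. In this comparison 9.99% of all tested genes separated upward. Coq10b had a log2 fold change of 1.49 ± 0.24 with an edgeR adjusted p of 0.0102. The anti-B7-H3 libraries lay between them at 35.2, 36.5 and 55.8 CPM, with a log2 fold change of 0.79 ± 0.24 against IgG (adjusted p = 0.287). It is 1 of 19 tested genes of the mobile carriers and coenzyme Q synthesis, whose median for anti-PD1 against IgG was 0.05. Without IgG 2 and anti-PD1 3 together, its log2 fold change was 1.36 and its adjusted p 0.0625. The macrophage marker sum was also higher with anti-PD1 (1299 to 1926 CPM) than with IgG (123 to 314 CPM), as was that of 10 neutrophil markers (665 to 963 CPM against 91.4 to 125 CPM), and the part of these cells in Coq10b was not tested.

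Tfam, which packages mitochondrial DNA and starts its transcription, had the lowest adjusted p for anti-PD1 against IgG among 32 genes of mitochondrial DNA transcription and RNA processing, of which 0 passed (medians -0.28 and -0.24 against IgG). It was at 31.8, 27.2 and 28.2 CPM with anti-B7-H3, 25.1, 20.7 and 24.7 CPM with anti-PD1, and 43.0, 53.4 and 41.9 CPM with IgG. All 6 treated libraries were below all 3 IgG libraries. Of all tested genes, 5.49% were lower without overlap for anti-B7-H3 against IgG and 6.52% for anti-PD1 against IgG. The log2 fold changes of -0.67 ± 0.23 and -0.97 ± 0.23 did not pass edgeR's test (adjusted p = 0.389 and 0.0683), while DESeq2 gave the second an adjusted p of 0.00452. Of the regulators, Myc was at 241, 255 and 307 CPM with anti-B7-H3 and 179, 136 and 171 CPM with IgG (log2 fold change 0.73 ± 0.18, edgeR adjusted p = 0.149).

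Promoters of some nuclear members hold motifs of the factors NRF-1 and the ETS family, known regulators of respiratory genes. Those of Sdha and Sdhd are shown because complex II had the highest nuclear median for anti-B7-H3 against IgG. They are RefSeq sequences on GRCm38.p6, minus strand, from the 250 bases before the start and outside the GENCODE gene: chr13:74350281-74350490 for Sdha and chr9:50603850-50604099 for Sdhd. Capitals mark the NRF-1 motif (GCGCA and GCGC with any base between them) and the ETS motif (CCGGAAG), searched on both strands, and the motifs do not overlap each other here.
Sdha: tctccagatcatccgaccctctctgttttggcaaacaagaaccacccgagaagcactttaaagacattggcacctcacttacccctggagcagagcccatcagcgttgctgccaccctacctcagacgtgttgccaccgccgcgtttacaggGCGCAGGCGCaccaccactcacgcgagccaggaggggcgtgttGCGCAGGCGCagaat
Sdhd: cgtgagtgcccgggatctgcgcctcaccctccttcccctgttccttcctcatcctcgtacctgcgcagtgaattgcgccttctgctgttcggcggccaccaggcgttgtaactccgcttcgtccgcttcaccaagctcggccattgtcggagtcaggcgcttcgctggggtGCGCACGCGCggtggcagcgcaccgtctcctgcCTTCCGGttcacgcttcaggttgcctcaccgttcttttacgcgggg
Sdha held 2 NRF-1 motifs in this window, and Sdhd held 1 NRF-1 and 1 ETS motif. RefSeq promoter windows (250 bases before to 50 after a start) were matched by symbol for 67 of the 86 nuclear members. The NRF-1 motif lay in 17 of them (25.4%) and in 5.19% of the 27025 symbols with a window, and the ETS motif lay in 16 (23.9%) and in 9.93%. Sdhb, also of complex II, had the ETS motif in its window and not the NRF-1 motif. Members with and without the motif had close medians. For anti-B7-H3 against IgG the median log2 fold change was -0.04 for 17 members with the NRF-1 motif and -0.07 for 48 without it, and for anti-PD1 against IgG it was -0.27 and -0.23. For the ETS motif these medians were -0.07 for 16 members with it and -0.05 for 49 without it, and -0.25 and -0.23.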

How the data were processed

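RNA was amplified with SMART-Seq v4, depleted of ribosomal RNA and made into Nextera XT libraries, per the labels' protocols, from samples with an RNA integrity number of at least 7.0 and at least 500 ng of RNA. The kits do not mark the strand. The submitters' processing notes name FastQC 0.11.8 and genome GRCm38, and the quantifier is not given in the sources used here. The deposited files give, per the file headers, an estimated count, neither normalised nor rounded, and a TPM value for each of 58083 transcripts. Lengths are coding lengths, since 87.3% are multiples of 3.

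With GENCODE M21, 57409 transcripts were matched, and the 674 others, with 0.236% to 0.547% of a library's counts, were left out. Estimated counts were summed per gene and rounded, and the deposited TPM were summed per gene. A single model over the 9 libraries was fitted with edgeR 4.0.16 (R 4.3.3): TMM factors, filterByExpr, a mean per group, robust quasi-likelihood dispersions, and Benjamini-Hochberg adjustment over 13178 genes at 0.05. CPM use TMM-scaled library sizes, and shares use plain totals. A floor of 3 counts in a single library is 0.0954 to 0.208 CPM. The folds over a floor instead set the pooled counts of a treatment against 3 counts over the whole IgG group. The Wilson intervals of shares and the floors cover counting error only, as reads carry no molecular identifiers.

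The members, the pathway and marker lists and the named genes were chosen with earlier results of these data known. Named are all mitochondrial members, any nuclear member past the test, the 3 nuclear members of each complex with the smallest p, the highest and lowest by TPM, the isoform genes, and up to 4 genes per list by p. Many members have pseudogene copies in the nucleus. Reads of near-identical copies could have been counted with the member or, where the copy was among the transcripts, split between them. The fit was tested on simulated counts. Alternatives were DESeq2 1.42.0, limma-voom (limma 3.58.1), other size factors and filters, TPM-derived counts, tables without abundant or mitochondrial genes, fewer libraries, dispersions without robust shrinkage, a replicate block, each library left out, and, chosen after seeing the data, IgG 2 and anti-PD1 3 left out together. A result on a nuclear member is not reported here.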

Additional observations from a re-analysis of the deposited data

Results flagged for a closer look

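Atp5a1, the gene of ATP synthase subunit alpha, was above the IgG mean in every anti-B7-H3 library and below it in every anti-PD1 library on the log2 scale of CPM plus 0.5. The difference between the treatments was 0.32 ± 0.17 (log2 fold change, SE) for anti-B7-H3 against anti-PD1, with 967, 816 and 858 CPM against 738, 652 and 726 CPM. Tested by edgeR's quasi-likelihood test, it had an unadjusted p of 0.0898 and an adjusted p of 1.0. Its 95% interval ran from -0.06 to 0.7.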

How the results depend on the processing

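In all 22 alternatives 0 members were called, and of 330 recomputed counts, medians and share differences 324 moved by less than 1 SD between replicates or not at all. The 330 include the counts of members called, all at 0. For the mitochondrial medians against IgG (0.37 and 0.25) that SD was 0.49 and 0.39. A median could therefore reach 0 or change sign and still move by less than 1 SD. The nuclear median for anti-PD1 against IgG was -0.15 with limma-voom, against -0.23. With summed TPM in place of counts, the nuclear share differed from IgG by -0.394 percentage points for anti-B7-H3 and by -0.625 for anti-PD1. Medians with each library left out ran from 0.01 to 0.89 (anti-B7-H3) and from 0 to 0.8 (anti-PD1) for mitochondrial members against IgG, and from -0.29 to 0.19 and -0.3 to 0.07 for nuclear members. For anti-B7-H3 against anti-PD1 they ran from -0.27 to 0.26 and from -0.11 to 0.3, and limma-voom turned both round, to -0.24 and -0.02. The upper ends against IgG come from leaving out IgG 3, when 7 mitochondrial and 7 nuclear members with anti-B7-H3, and 6 and 2 with anti-PD1, had an unadjusted p under 0.05. Leaving out anti-B7-H3 1 gave 12 nuclear and 0 mitochondrial members under 0.05 with anti-B7-H3 (nuclear median -0.29) and 5 and 1 with anti-PD1. The share of all tested genes under 0.05 in these refits is not given here. In the main fit it was 8.81% for anti-B7-H3 and 10.9% for anti-PD1 against IgG, so these counts alone do not set the members apart. The cause of the shifts in medians and counts was not tested. Replicate numbers did not pair the libraries: same-numbered libraries correlated at -0.12 to 0.156, 1 of 9 pairs was over 0.1, and 2 libraries matched best with their own number. With the replicate number as a block 0 members were called, the medians against IgG were 0.38 and 0.32 (mitochondrial) and -0.05 and -0.23 (nuclear), and calls over all genes were 64, 127 and 0 in place of 112, 229 and 0 (anti-B7-H3 against IgG, anti-PD1 against IgG, anti-B7-H3 against anti-PD1). DESeq2 made 393, 659 and 15 calls, limma-voom 2 in the last comparison, and fits of the 6 libraries compared made 44 and 136 against IgG. With a library left out there were 59 to 144, 113 to 262 and 0 to 1. Coq10b in anti-PD1 against IgG passed in 21 of 22 alternatives, with adjusted p from 1.08e-06 to 0.0625. Among the other named genes, DESeq2 alone called Myc for anti-B7-H3 against IgG (adjusted p = 0.0051) and Gpd2, Pdha1 and Tfam for anti-PD1 against IgG (0.0387, 0.0476 and 0.00452). With 3 libraries a group, most mitochondrial members had intervals against IgG that reach past 2-fold.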
